A study of Rattus norvegicus with 15 samples.

Results

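The Cyp4 family was followed in rat liver through its 7 members Cyp4a1, Cyp4a2, Cyp4a3, Cyp4a8, Cyp4b1, Cyp4f1 and Cyp4f4. The members were taken by name, from every non-control probe of the array whose gene name is a current symbol or an older alias of a member. This gave 7 probes of 41012, 1 for each gene, and all 7 were well above background on all 15 arrays. The array carries 5 of them under older aliases: the Cyp4a1 probe is listed as Cyp4a22, Cyp4a2 as Cyp4a11, Cyp4a3 as Cyp4a14, Cyp4a8 as Cyp4a12 and Cyp4f1 as Cyp4f2. In each case the RefSeq transcript given for the probe belongs to the member.

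Liver RNA came from 15 female Wistar Crl:WI rats of 2 to 3 months, 1 rat per one-colour Agilent array, with no pooling. The fipronil group (n = 8) was given 3 mg/kg of this phenylpyrazole insecticide by mouth every day for 14 days. The vehicle group (n = 7) was given the carrier alone on the same schedule, a water solution of 0.5% methylcellulose and 0.01% Tween 80. Only females, 1 dose and 1 time were studied, and the tissue was a piece of about 100 mg from the large lobe. The comparison asked how liver transcripts differ between the groups. Signal below is log2 spot intensity after dividing by its array's 75th percentile. A signal therefore orders rats for 1 probe and does not order probes.

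CYP4 enzymes are cytochrome P450s of the endoplasmic reticulum that place a hydroxyl group on the terminal, or omega, carbon of fatty acids and eicosanoids. The product is oxidised to a dicarboxylic acid by alcohol and aldehyde dehydrogenases and then shortened in peroxisomes. In liver the Cyp4a genes are classical targets of the nuclear receptor PPARalpha, Cyp4f enzymes inactivate leukotriene B4 and other lipids, and Cyp4b1 is better known from lung, where it activates xenobiotics.

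Array brightness differed between the groups. In fipronil rats the array's 75th percentile averaged 210.0 ± 25.8 intensity units (SD, n = 8), above the 171.5 ± 33.3 units (SD, n = 7) of vehicle rats (two-sided exact permutation p = 0.0202, adjusted p = 0.0303 over 3 measures). An array held 168.4 ± 16.9 saturated probes in the fipronil group and 134.9 ± 27.4 in the vehicle group (exact permutation p = 0.0134, adjusted p = 0.0303). In the limma fit over 23259 probes, 124 were called higher and 67 lower at a Benjamini-Hochberg adjusted p under 0.05, and scaling by the median in place of the 75th percentile gave 184 and 53. The median log2 difference of all tested probes was -0.02, and 3998 had an unadjusted p under 0.05. Hepatocyte markers were bright in both groups: 5 of 9 were saturated on every fipronil array, and those not saturated were Cps1, Fah, Ass1 and Hnf4a, with log2 differences of -0.02, -0.03, -0.23 and 0.03.

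All 4 Cyp4a genes had lower means with fipronil. Cyp4a8 and Cyp4a3 fell 1.75-fold and 1.65-fold, whereas Cyp4a1 and Cyp4a2, with means lower by 1.62 and 1.40 times, did not pass the test. Cyp4b1 and Cyp4f4 did not pass it either. Cyp4f1 was not called, but its spot was saturated in 8 fipronil and 5 vehicle rats, so the test cannot show whether its level differed. Thus 2 of the 7 members were called, both lower. Over every probe tested, 0.821% were called, 0.288% as lower and 0.533% as higher. No member had groups that did not overlap, against 0.224% of tested probes that lay wholly lower with fipronil and 0.374% that lay wholly higher. In RNA from whole liver, fewer hepatocytes and less transcript per hepatocyte cannot be told apart.

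**Figure D1:**
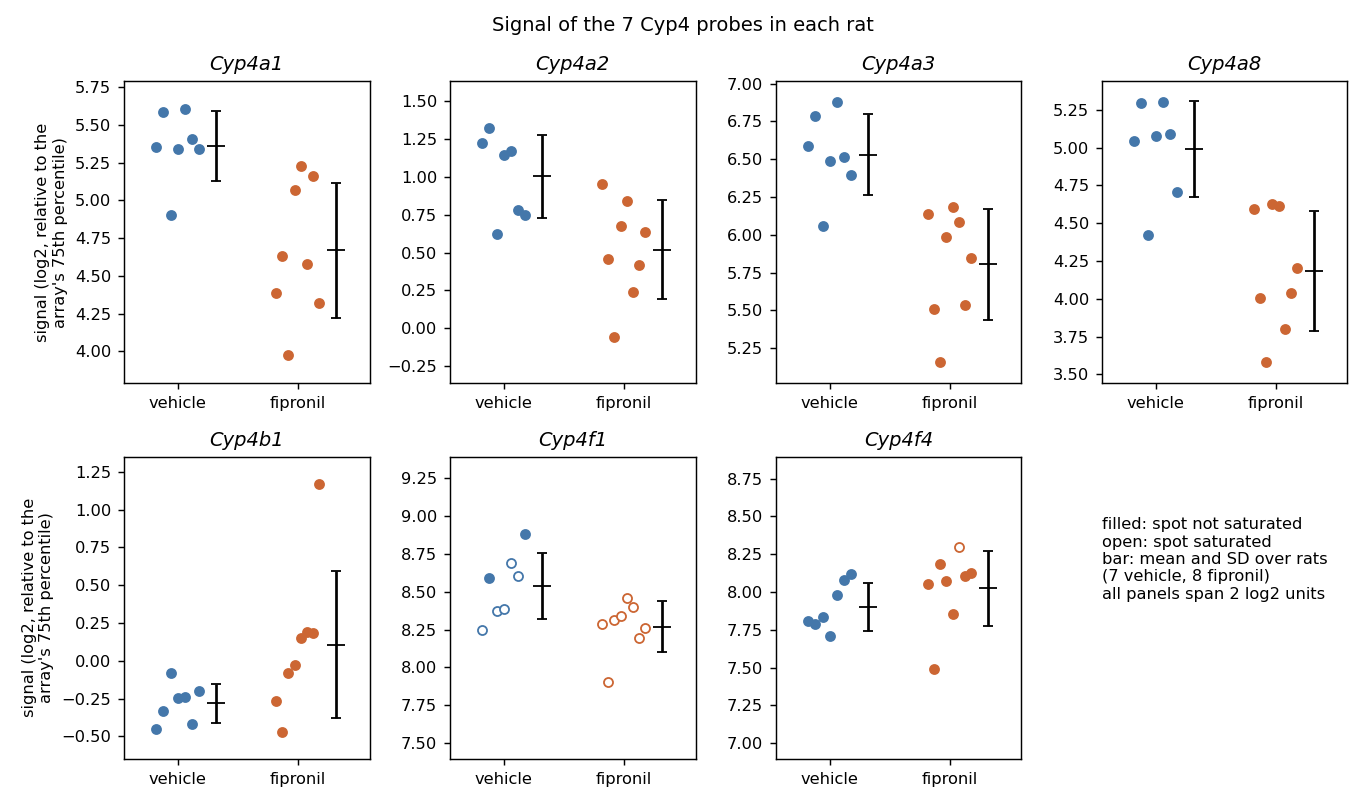
Signal (log2, relative to the 75th percentile of the array) of each of the 7 Cyp4 probes in each rat, vehicle (7 rats) and fipronil (8 rats), with the group mean and SD beside the points and open points for saturated spots; every panel spans the same log2 range. The 4 Cyp4a panels show all 8 fipronil rats under the vehicle mean with overlapping groups, Cyp4b1 has 1 fipronil rat at 1.17, and Cyp4f1 is saturated in all 8 fipronil rats and 5 of 7 vehicle rats.

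Cyp4a8, a fatty acid hydroxylase first described from rat kidney, had the largest difference of the family. Its signal was 4.42 at the lowest, 5.08 at the median and 5.30 at the highest in vehicle rats, and 3.58, 4.12 and 4.63 in fipronil rats. The groups overlapped through a single vehicle rat, number 3, at 4.42: the other 6 vehicle rats were above every fipronil rat, and 5 of 8 fipronil rats were below every vehicle rat. Means were 4.99 ± 0.32 (SD, n = 7) and 4.18 ± 0.40 (SD, n = 8), a log2 difference of -0.81 (SE 0.18, limma adjusted p = 0.0435) and a fold of 1.75 with a 95% interval of 1.35 to 2.27. It was the 58th of all lower probes by p and 167th of all 23259. The call lay close to the threshold: it held without fipronil rat 1, 4 or 5 or without vehicle rat 3, and was lost without any of the other 11 rats (adjusted p 0.0577 to 0.0979). A block for slide gave -0.82 (adjusted p = 0.0524), and a covariate for array brightness gave -0.76 (adjusted p = 0.291).

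Cyp4a3, an omega-hydroxylase of medium and long chain fatty acids, had the second called difference. Vehicle rats ran from 6.06 through a median of 6.52 to 6.88, and fipronil rats from 5.16 through 5.92 to 6.19. Vehicle rat 3 was again the only vehicle rat within the fipronil range. Means were 6.53 ± 0.27 (SD, n = 7) and 5.81 ± 0.37 (SD, n = 8), a log2 difference of -0.72 (SE 0.16, limma adjusted p = 0.0448) and a fold of 1.65 with a 95% interval of 1.31 to 2.09. The call held without fipronil rat 5 or 6 or without vehicle rat 3, and was lost without any of the other 12 rats (adjusted p 0.0502 to 0.0996). A block for slide gave -0.77 (adjusted p = 0.0187), and a covariate for array brightness gave -0.60 (adjusted p = 0.362).

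Cyp4a1 encodes the lauric acid omega-hydroxylase that peroxisome proliferators induce in rat liver. It had a mean difference close to that of Cyp4a3 with a wider spread among fipronil rats. Vehicle signals were 4.90 at the lowest, 5.35 at the median and 5.61 at the highest, and fipronil signals 3.98, 4.61 and 5.23. All vehicle rats but number 3 were above every fipronil rat. Means were 5.36 ± 0.23 (SD, n = 7) and 4.67 ± 0.45 (SD, n = 8), a log2 difference of -0.69 (SE 0.18, limma adjusted p = 0.0772, unadjusted p = 0.00121), with a 95% interval of the fold from 1.25 to 2.10. Without fipronil rat 5, the highest of its group, the difference was -0.77 (adjusted p = 0.0436). Without vehicle rat 3, the lowest of its group, it was also -0.77 (adjusted p = 0.0489). Both would have been called, and the other 32 alternative settings gave no call. A block for slide gave -0.73 (adjusted p = 0.0696), and a covariate for array brightness gave -0.605 (adjusted p = 0.443).

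Cyp4a2, known as a male-predominant form in rat liver and kidney, gave 196 to 401 intensity units in the fipronil rats and 194 to 501 in the vehicle rats, all of them female. On the scaled signal, vehicle rats had a lowest value of 0.62, a median of 1.14 and a highest of 1.33, and fipronil rats had -0.06, 0.55 and 0.95. The overlap was wider than for the other Cyp4a genes, with 4 of 7 vehicle rats above every fipronil rat. Means were 1.00 ± 0.28 (SD, n = 7) and 0.52 ± 0.33 (SD, n = 8), a log2 difference of -0.48 (SE 0.15, limma adjusted p = 0.135) with a 95% interval of the fold from 1.12 to 1.75. In rn4, the build of the array files, the ends of the Cyp4a2 probe are placed 1199 bases apart, both ends counted. Those of the other 6 member probes are 60 bases apart. This is a distance on the genome and need not be the length of the probe.

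**Figure D2:**
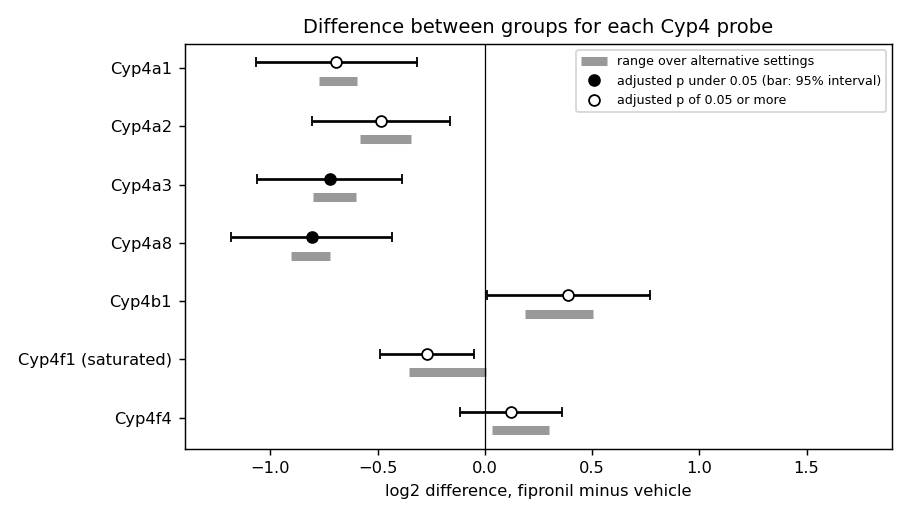
Log2 difference (fipronil minus vehicle) of each Cyp4 probe with its 95% interval from the limma fit (black; filled where the adjusted p is under 0.05) and, in grey, the range of that difference over the alternative settings. The 4 Cyp4a differences, from -0.81 to -0.48, stay below 0 in every setting, those of Cyp4b1 and Cyp4f4 stay above 0, and the range of the saturated Cyp4f1 probe reaches 0.01.

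Each of the 4 Cyp4a genes was below the vehicle mean in 8 of 8 fipronil rats, as was the saturated Cyp4f1 probe. Each Cyp4a difference was negative under all 34 alternative settings. These settings are not independent: 15 leave out 1 rat, and changes of filter alone left Cyp4a8 at -0.81. Cyp4a3 was called under 15 of the 34, Cyp4a8 under 12, Cyp4a1 under 2 and Cyp4a2 under 0. No Cyp4a spot was saturated on any array. Across the rats, the correlation of signal with the log2 75th percentile of the array, after removal of group means, was -0.19 for Cyp4a1, 0.08 for Cyp4a2, -0.29 for Cyp4a3 and -0.11 for Cyp4a8 (n = 15).

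Every slide held rats of both groups, so the comparison could be repeated within slides. Cyp4a8 differed by -0.87, -0.65, -1.09 and -0.78 on slides 1 to 4, and Cyp4a3 by -0.86, -0.70, -0.74 and -0.76. The Cyp4a1 differences were -0.96, -0.60, -0.70 and -0.64, and those of Cyp4a2 were -0.57, -0.57, -0.64 and -0.24. All 4 genes were thus lower with fipronil on 4 of 4 slides, although a slide holds at most 2 rats of a group and no test was run within a slide.

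**Figure D3:**
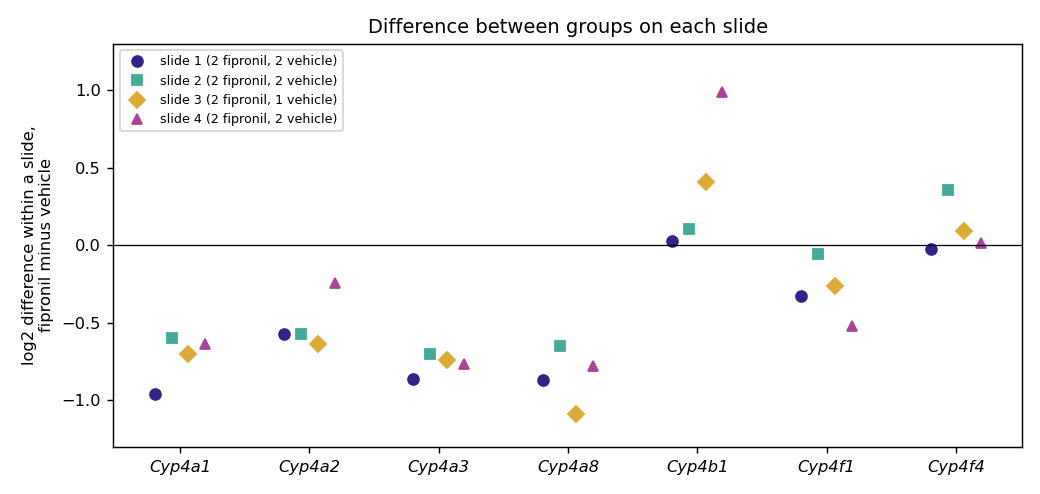
Log2 difference (fipronil minus vehicle) of each Cyp4 probe within each of the 4 slides, 1 symbol per slide; slide 3 holds 1 vehicle rat and each other slide holds 2 rats of each group. All Cyp4a symbols lie below 0, whereas Cyp4b1 ranges from 0.03 on slide 1 to 0.99 on slide 4.

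The 3 Cyp4a genes with an entry in the RefSeq promoter table (GRCr8) are Cyp4a2, Cyp4a3 and Cyp4a8. Each is shown by the stretch from 120 to 41 bases before the start site of that table. Any link of these sequences to differences between groups or rats was not tested. All are read from the minus strand, at chr5:134170949-134171028 for Cyp4a2, chr5:134352277-134352356 for Cyp4a3 and chr5:133970267-133970346 for Cyp4a8. Capitals mark AGGTCA, the core motif of many nuclear receptors, and CCCACAAGTAGG, the longest run of letters common to all 3 windows of 300 bases.
Cyp4a2: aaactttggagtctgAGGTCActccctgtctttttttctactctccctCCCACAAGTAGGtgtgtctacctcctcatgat
Cyp4a3: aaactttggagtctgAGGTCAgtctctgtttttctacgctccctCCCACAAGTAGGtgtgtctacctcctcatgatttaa
Cyp4a8: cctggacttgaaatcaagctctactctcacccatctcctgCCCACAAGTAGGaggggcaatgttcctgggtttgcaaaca

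Each window of 300 bases ends past the start site, so identities between windows also count transcribed bases. The windows of Cyp4a2 and Cyp4a3 are near copies, with 93.1% identity over their aligned length of 305 positions, gaps at the ends included. Counted in the same way, Cyp4a8 shares 58.5% with Cyp4a2 and 59.1% with Cyp4a3, and Cyp4b1 shares 48.6% with Cyp4a2. AGGTCA, searched on both strands, starts 105 bases before the start site in Cyp4a2 and in Cyp4a3, does not occur in the Cyp4a8, Cyp4b1 or Cyp4f1 window, and occurs in 16.2% of 33469 promoters. The direct repeat DR1, a pair of AGGTCA separated by 1 base, is the consensus arrangement for PPARalpha with its partner RXR. An exact copy occurs on either strand in 0 of these 5 windows and in 0.0538% of promoters. Imperfect copies and sequence outside the windows were not searched, so this count cannot show whether a gene has a PPARalpha site. The common run, found by comparing the sequences, starts 72 bases before the start in Cyp4a2, 76 in Cyp4a3 and 80 in Cyp4a8, and occurs in 4 of 33469 promoters (0.012%). The fourth is Cyp4a2l1, a neighbouring copy of Cyp4a2 that no probe of the array names. Its window is that of Cyp4a2 shifted by 36 bases, and all 264 bases that the windows share are identical. The same annotation places the pseudogenes Cyp4a2-ps1, Cyp4a2-ps2 and Cyp4a8-ps1 in this cluster. Whether the Cyp4a2 or Cyp4a8 probe also reads such copies was not tested.

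Rats low for 1 of these genes tended to be low for the others. Each gene was read by 1 probe, and whether a probe also reads transcripts of another member was not tested. Deviations from the group mean were compared over the 15 rats for the 21 pairs of members, with permutation p-values (100000 resamples, two-sided) adjusted over the 21 pairs. Cyp4a2 and Cyp4a8 were the closest pair, with Pearson r = 0.906 (adjusted permutation p = 0.00042) and Spearman rho = 0.846 (adjusted permutation p = 0.00315). Cyp4a3 followed with r = 0.809 to Cyp4a8 (adjusted permutation p = 0.0084; rho = 0.750, adjusted p = 0.0267) and r = 0.776 to Cyp4a2 (adjusted permutation p = 0.00924; rho = 0.732, adjusted p = 0.0267). Fipronil rat 3 and vehicle rat 3 were the lowest of their groups for each of these 3 genes. Without the 2 rats farthest from the median the 3 coefficients were 0.838, 0.631 and 0.565. Within slides they were 0.915, 0.859 and 0.837, and with array brightness removed 0.923, 0.818 and 0.838.

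The pairs of Cyp4a1 with the other Cyp4a genes did not pass the adjusted test. Its r was 0.635 with Cyp4a8, 0.545 with Cyp4a3 and 0.507 with Cyp4a2 (adjusted permutation p = 0.092, 0.213 and 0.227). Within groups the coefficients of Cyp4a1 with Cyp4a3 were 0.967 in the 7 vehicle rats and 0.416 in the 8 fipronil rats, and the difference between them was not tested. Fipronil rats 1 and 8 had low Cyp4a1 signals, 4.39 and 4.32, beside Cyp4a3 signals of 6.14 and 5.85, above the mean of their group. Fipronil rat 7 was the reverse, with 5.16 for Cyp4a1 and 5.54 for Cyp4a3.

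**Figure D4:**
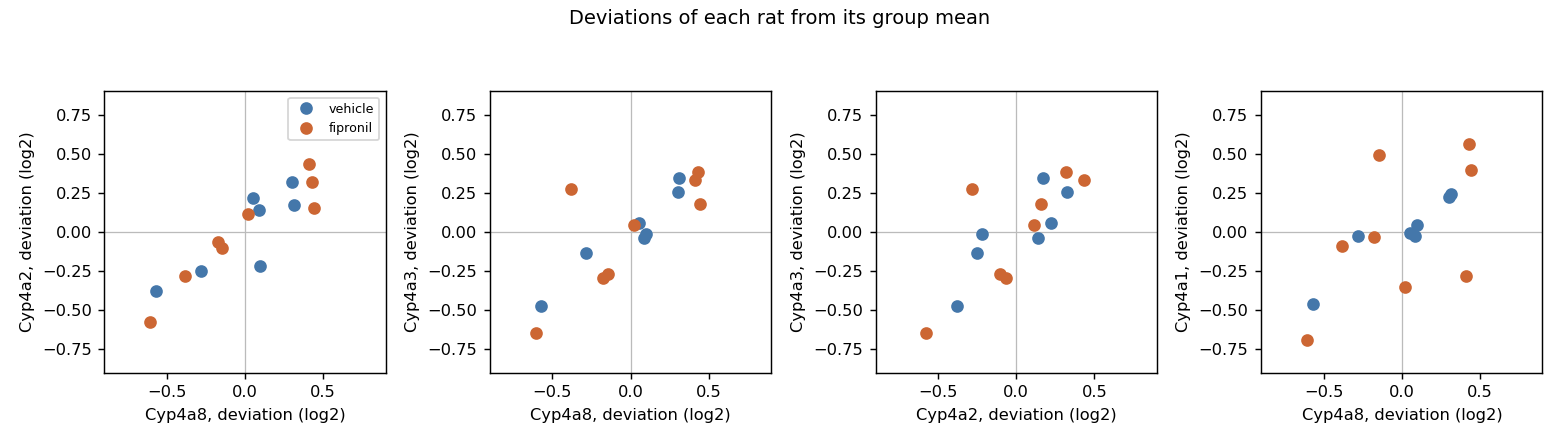
Deviation of each rat from its group mean (log2) for 4 pairs of Cyp4a genes, vehicle rats in blue and fipronil rats in orange. Points of Cyp4a2 against Cyp4a8 lie close to a line (r = 0.906), those of Cyp4a3 against Cyp4a8 and Cyp4a2 are looser (r = 0.809 and 0.776), and Cyp4a1 against Cyp4a8 is the loosest (r = 0.635).

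Among 10108 genes compared by the same measure over the 15 rats, the gene most like Cyp4a8 was Cyp4a2, and the gene most like Cyp4a2 was Cyp4a8. Next for Cyp4a8 were Prlr, the prolactin receptor gene (r = 0.874), and Slc24a3, a sodium, potassium and calcium exchanger gene (r = 0.857), with Cyp4a3 at rank 10. For Cyp4a2 they were Ciapin1 (r = 0.851) and Ing3 (r = 0.843), with Cyp4a3 at rank 11. The genes most like Cyp4a3 were Ghr, the growth hormone receptor gene (r = 0.863), Tm7sf2, a sterol reductase gene (r = 0.858), and Ccn3 (r = 0.842), and Cyp4a8 was at rank 7. Cyp4a1 was closest to Hadha, the alpha subunit of the mitochondrial trifunctional protein (r = 0.875), then Fbxl22 (r = 0.851) and Retreg3 (r = 0.819). These ranks describe 15 rats that share 4 slides. Of the genes named here other than members, none was called between the groups. Their largest log2 differences were those of Ccn3, at -2.91 (limma adjusted p = 0.0609), and Slc24a3, at -2.17 (limma adjusted p = 0.202). The others ran from -0.69 (Prlr) to 0.14 (Retreg3).

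Cyp4b1, which activates protoxins such as ipomeanol in lung, had a higher mean with fipronil, part of whose size came from 1 rat, and did not pass the test. Vehicle signals were -0.45 at the lowest, -0.24 at the median and -0.08 at the highest, and fipronil signals were -0.47, 0.06 and 1.17. Fipronil rat 8 stood alone at 1.17, with the next at 0.19, and 5 of 8 fipronil rats were above every vehicle rat. Means were -0.28 ± 0.13 (SD, n = 7) and 0.11 ± 0.49 (SD, n = 8), a log2 difference of 0.39 (SE 0.18, limma adjusted p = 0.279), and 0.24 without rat 8. The 4 slides gave 0.03, 0.11, 0.41 and 0.99, the last from the slide of rat 8. Its closest genes over the 15 rats were Lurap1l (r = 0.875), Shisa5 (r = 0.813) and St3gal1 (r = 0.801).

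Cyp4f1, a hydroxylase of leukotriene B4, was too bright for this array. Its spot was saturated in all 8 fipronil rats and in 5 of the 7 vehicle rats, with intensities of 62753 to 65386 and 54462 to 65574. The scanner's saturation value was 65502, so no fold is given. The scaled signal was 8.27 ± 0.17 (SD, n = 8) in fipronil rats and 8.54 ± 0.22 (SD, n = 7) in vehicle rats (limma adjusted p = 0.207). This measured difference of -0.27 is near the median of -0.31 over the 83 tested probes saturated on every array. The log2 75th percentile by which signals were divided was 0.31 higher with fipronil. The difference was 0.01 after quantile normalization of median intensity. Over the 15 rats, r between Cyp4f1 signal and array brightness was -0.97, and the genes most like it were Krt18, Rpl7a and Ftl1l1 (r = 0.992, 0.990 and 0.986).

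Cyp4f4, a hydroxylase of leukotrienes and prostaglandins, was also bright. Vehicle signals ran from 7.71 through 7.83 to 8.12, and fipronil signals from 7.49 through 8.09 to 8.30. The whole vehicle range lay within the fipronil range, and means were 7.90 ± 0.16 (SD, n = 7) and 8.02 ± 0.25 (SD, n = 8), a log2 difference of 0.12 (SE 0.11, 95% interval -0.11 to 0.36, limma adjusted p = 0.622). The spot was saturated only in fipronil rat 6, while some of its pixels were saturated in 6 of the 8 fipronil rats and in 0 of the 7 vehicle rats. The correlation of its signal with array brightness was -0.646 over the 15 rats. Its closest genes were Hprt1 (r = 0.948), Upf3a (r = 0.933) and Hsd17b11 (r = 0.919). Cyp4f1 and Cyp4f4 correlated with r = 0.681 (adjusted permutation p = 0.047) and rho = 0.504 (adjusted permutation p = 0.202), and with brightness removed r was 0.290.

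The members lie in 2 genome clusters. In rn4 coordinates, the Cyp4a8 probe is at chr5:135547804-135547863, followed by Cyp4a2 at chr5:135770520-135771718, Cyp4a3 at chr5:135876161-135876220, Cyp4a1 at chr5:135915621-135915680 and Cyp4b1 at chr5:135922246-135922305, a span of 375 kb. Among the members, the Cyp4b1 probe is the nearest to that of Cyp4a1, and their differences had opposite signs. Within this span and 250 kb on either side, 8 other probes were tested, 0 of them were called, and their log2 differences ran from -0.27 (Tal1) to 0.24 (Atpaf1). On chromosome 7 the probes of Cyp4f4 (chr7:13309322-13309381) and Cyp4f1 (chr7:13589691-13589750) span 280 kb, and 13 other tested probes around them gave 0 calls, from -0.20 to 0.66. Exons and untranslated regions under the probes were not analysed here.

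Of the other Cyp4 genes on the list, 5 of 9 had a probe and 4 were tested. None passed the test, and their median log2 difference was 0.34. It was 0.11 with normexp and quantile normalization, 0.16 with quantile normalized median intensity and 0.15 in the authors' deposited table. The smallest p was that of Cyp4f17, at -1.37 ± 0.22 (SD, n = 8) after fipronil and -1.80 ± 0.25 (SD, n = 7) after vehicle, a log2 difference of 0.43 (SE 0.12, limma adjusted p = 0.103). Cyp4f6, beside Cyp4f1 on chromosome 7, was the only one of the 4 with a negative difference, -0.18. The other 3 probes were dimmer, with group means of -1.37 or less against 5.98 and 6.16 for Cyp4f6. Cyp4f39 was above background on only 12 arrays.

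No gene of the enzymatic steps that follow omega-hydroxylation passed the test, among 19 tested of 21. This list holds alcohol and aldehyde dehydrogenases, acyl-CoA activation, the peroxisomal transporters and peroxisomal beta-oxidation. The differences were negative for 14 and positive for 5, with a median of -0.08, and 6 of the 19 were saturated on every array of a group. The 13 others had a median of -0.02, with 8 negative, and the median of the list was -0.12 to -0.16 without fipronil rat 4 or 7 or vehicle rat 1, 4 or 6. The smallest p was among the saturated ones, Acaa1a, a peroxisomal thiolase, with signals of 8.22 ± 0.15 (SD, n = 8) and 8.52 ± 0.26 (SD, n = 7) and an adjusted p of 0.195 in the limma fit. Ehhadh and Acaa1b, peroxisomal enzymes whose probes were not saturated, gave -0.08 and -0.07.

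The list of PPARalpha, its partners and its other target genes had 23 tested genes of 26 and 0 calls. The median log2 difference was -0.21 against -0.02 over all tested probes, and 17 of the 23 were negative. With normexp and quantile normalization the median was -0.13. Acadvl, the very long chain acyl-CoA dehydrogenase, had the smallest p, at 6.16 ± 0.10 (SD, n = 8) after fipronil and 6.41 ± 0.14 (SD, n = 7) after vehicle (log2 difference -0.25, SE 0.08, limma adjusted p = 0.127). Hadha, the gene most like Cyp4a1 over rats, gave -0.21 (adjusted p = 0.225), and Ppara itself gave 0.37 (adjusted p = 0.225). The differences of this list were mostly smaller than those of the Cyp4a genes: only Cd36, the fatty acid translocase gene, at -0.78 (SE 0.31, adjusted p = 0.222), lay between those of Cyp4a8 and Cyp4a3.

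**Figure D5:**
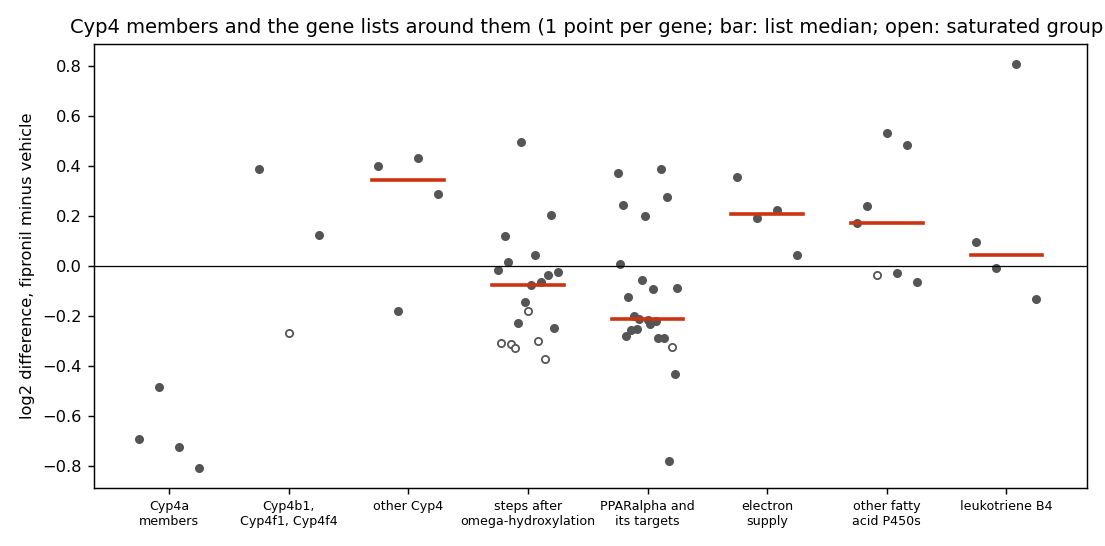
Log2 difference (fipronil minus vehicle) of the Cyp4 members and of each tested gene of 6 related lists, 1 point per gene, with a red bar at each list's median and open points for genes saturated on every array of a group. The Cyp4a points lie between -0.81 and -0.48, and the list medians between -0.21 (PPARalpha and its targets) and 0.34 (other Cyp4 genes).

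Electron supply to P450s was tested through 4 genes, with 0 calls and a median of 0.21, or 0.08 without slide 1. The smallest p was that of Cyb5a, cytochrome b5, at 0.19 (SE 0.09, limma adjusted p = 0.286), whose spot was saturated in 7 fipronil rats and in 0 vehicle rats. Among other P450s of fatty acids and soluble epoxide hydrolase, 7 of 9 genes were tested, 0 were called, and the median was 0.17. That median was -0.03 when a probe had to be above background on all 15 arrays, 0.02 without slide 2 and 0.06 without fipronil rat 1. Cyp2c23, an arachidonic acid epoxygenase, had the smallest p there, at 0.24 (SE 0.09, limma adjusted p = 0.200). Of the genes listed around leukotriene B4, 4 of 7 were tested with 0 calls. Their median was 0.04, which ran from -0.04 without slide 4 to 0.26 without slide 2. In this list Ltc4s had the smallest p, at 0.81 (SE 0.36, limma adjusted p = 0.262). It encodes leukotriene C4 synthase, whose product is not leukotriene B4. The other tested genes ran from -0.13 (Ptgr1) to 0.10 (Alox5ap). Alox5, Ltb4r and Ltb4r2 were not above background on enough arrays to be tested.

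Marker lists of liver cell types gave 0 calls in 8 lists. Of the hepatocyte list 8 of 9 differences were negative, with a median of -0.23. The 4 markers not saturated on a whole group had a median of -0.02, and the other 5, saturated on every fipronil array, ran from -0.32 to -0.09, beside the median of -0.31 over probes saturated on every array. Over all 9 the log2 of the summed signal ran from 10.6 to 11.1 with fipronil and from 10.9 to 11.6 with vehicle. Most of this sum came from the 5 saturated markers, so it is not read as a level of hepatocytes. Their group means were 8.13 to 8.86, against 7.60 or less for the other 4. Endothelial markers had a median of 0.29 over 5 tested of 8, with 3 positive, and summed levels of 6.09 to 7.02 and 5.84 to 6.29. Most of this sum came from Kdr, with group means of 6.28 and 5.99, against 2.23 or less for the other tested markers. Pecam1 and Tek were too dim to test. Kupffer cell and macrophage markers had a median of 0.19 over 7 tested, 6 of them positive, with summed levels of 6.26 to 7.28 and 5.80 to 7.55. The medians of the other lists were -0.01 for stellate cells (8 tested of 8), -0.08 for cholangiocytes (5 of 6) and -0.07 for erythroid cells (5 of 6). They were 0.32 for T, B or NK cells (3 of 8) and 0.52 for neutrophils (3 of 6). The smallest limma adjusted p in these last lists was 0.335 and 0.298. Some of their tested probes were dim, with Cd3g and S100a8 each above background on 13 arrays. The part of these levels in the Cyp4a differences was not tested.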

How the data were processed

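The authors' deposited array files hold spot intensity from Agilent Feature Extraction 9.5.3.1, per the file headers background subtracted and detrended, with no normalization across arrays. The deposited flags of saturation, background and outliers are scores of 0 or 1, per the file headers. The authors' deposited table holds log2 values, read from comparison with the spots as quantile normalized median intensity. Per the submitters' processing notes, limma was used.

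Outlier spots were left out, spots of a probe averaged, and log2 processed intensity expressed relative to each array's 75th percentile. Probes well above background on at least 7 arrays and missing on at most 3 were tested with limma 3.58.1 in R 4.3.3, two-sided, with adjusted p under 0.05 as the call. The scripts were tested on simulated data. Genes were named through RefSeq. Precision is limited by 15 arrays.

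Members and gene lists were chosen with earlier results of these data known. Named from a list was the gene of smallest p where none passed, and for each member the 3 genes of highest r; other genes named were chosen after their values were seen. Replicate numbers were taken not to pair rats.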

Additional observations from a re-analysis of the deposited data

Results flagged for a closer look

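Of 16 groups of values examined for a rat far from the others of its group (7 members and 2 groups each, and the 75th percentile of intensity in each group), 3 held one, where chance marks about 1 in 20. For Cyp4a1, vehicle rat 3 was the lowest at 4.90, with the next at 5.34. For Cyp4b1, fipronil rat 8 was the highest at 1.17, with the next at 0.19. For array brightness, the 75th percentile of intensity of fipronil rat 2 was the highest at 270 units, with the next at 216.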

How the results depend on the processing

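Each difference was recomputed under 34 alternatives (33 for Cyp4f1). The alternatives are not independent: 15 leave out 1 rat, and those that change only the filter cannot move a member's difference. The Cyp4a differences stayed negative and those of Cyp4b1 and Cyp4f4 positive in all of them, whereas Cyp4f1 changed sign in 2, to 0.01 with median intensity and quantile normalization and with the authors' deposited table. Of 7 members, 2 were called in the reported fit. This became 1 with normexp and quantile normalization, with median intensity and quantile normalization, with the authors' deposited table, with quantile normalized processed intensity, with slide as a block and without slide 2. It became 0 with median scaling, with no filter on dim probes, with brightness as a covariate, and without slide 1, 3 or 4. Leaving out 1 rat gave 0 to 3, with 3 without fipronil rat 5 or vehicle rat 3. The count over all probes, 191, was 90 with no filter, 42 with brightness as a covariate, 37 without slide 1, 45 without slide 4, and 102 (without fipronil rat 8) to 304 (without vehicle rat 3) on leaving out 1 rat. With no filter the median of all probes was -0.12. With a replicate block, 97 probes were called and the same 2 members remained called (adjusted p = 0.0377 for each); same-numbered rats correlated from -0.04 to 0.37 and 3 of 7 correlated best with their own number, so the numbers were not taken as pairs. The median of the other fatty acid P450s, 0.17, was -0.0291 with a filter on all 15 arrays, 0.0192 without slide 2 and 0.0625 to 0.242 on leaving out 1 rat. The median of the genes acting after omega-hydroxylation, -0.08, lay between -0.02 and 0.00 with each quantile normalization and at -0.02 with saturated spots left out. The causes were not tested. Saturation limits Cyp4f1 and, in part, Cyp4f4, and no probe sequence was at hand to judge cross-hybridisation within the family.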

Other observations

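A further probe, listed as M57718 and described in the array files as a Cyp4a1 gene probe, carries no member name and was not counted among the members. It lies at chr5:135916390-135916449 in rn4 and passed the background test in 0 of 8 fipronil rats and 1 of 7 vehicle rats, with intensities of 2.55 to 19.0 units, so it gives no level for either group.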
